A study of Drosophila melanogaster with 7 samples.

Results

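The genes of 5 chromatin-binding factors were examined for binding by CLAMP in their own neighbourhood. They are Clamp itself, Trl, psq, lola and grh, chosen by name as genes of GA-binding, BTB-domain or pioneer factors, out of 17684 annotated genes on the main chromosome arms, 13922 of them protein-coding. All 5 were found in the gene table. The choice was made with earlier results of these data known. The series mapped CLAMP in 2 unfixed *Drosophila melanogaster* embryonic cell lines grown at 25 °C, male S2 and female Kc, and asked where its binding differs between them. The method was CUT&RUN, in which an antibody guides a nuclease to its target and the DNA it frees is sequenced. There were 3 S2 libraries and 2 Kc libraries made with rabbit anti-CLAMP, and 1 library per line made with rabbit IgG, an antibody with no specific target. The submitters left out a further Kc replicate for lack of material. Both lines are long-established cultures, and no label speaks of a treatment, a transgene or a changed gene. Peak lists do not measure expression, so the line of each library was taken as labelled.

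GA-rich stretches of the fly genome are read by several proteins. GAGA factor, the product of Trl, joins a BTB domain, through which such proteins assemble, to a zinc finger that reads GAGAG, and it helps to open chromatin at promoters. Pipsqueak, the product of psq, carries a BTB domain and binds the same short motif through a repeated domain of its own. Lola is a BTB factor of axon guidance made in many spliced forms with different zinc-finger ends. CLAMP reads longer GA repeats with an array of zinc fingers and is needed for dosage compensation of the male X. Grainyhead, the product of grh, is a pioneer factor of epithelial cells with a DNA-binding domain of another family.

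A gene was said to hold a peak when a deposited peak overlapped its body or the flanking 500 bp by at least 1 bp. The CLAMP lists held 5535 to 9832 peaks on the main arms, the S2 IgG list 1165 and the Kc IgG list 8615. Read numbers are not part of peak lists, so depth is unknown. S2 replicate 3 had the shortest CLAMP list and stood apart: its peaks covered 2062 kb, against 3784 to 4913 kb in the other CLAMP lists, and 32.7% of them had a q-value of 0.0001 or less, against 53.7% to 76.4%. Separate cultures are not stated for the replicates. The p-values below therefore rest on the spread between libraries alone, and part or all of it may be technical.

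CLAMP peaks were present at all 5 genes in all 5 CLAMP libraries. Among all protein-coding genes 6.96% were held by all 5 libraries. As the genes were chosen with earlier results of these data known, this contrast is no independent test. Gene length bears on this share, which was 2.66% for genes shorter than 5 kb (Clamp is 3424 bp long), 13.7% for genes of 5 to 20 kb (Trl is 13121 bp long) and 43.6% for genes of 40 kb or longer (psq, lola and grh). With only peaks whose q-value was at most 0.0001, psq and lola were still held by all 5 libraries, against 3.33% of protein-coding genes. Clamp, Trl and grh then lost their peaks in S2 replicate 3 alone. In the other 4 CLAMP libraries all 5 genes kept a peak at that threshold, against 11.7% of protein-coding genes. Shares at that threshold were taken over genes of all lengths only.

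**Figure D1:**
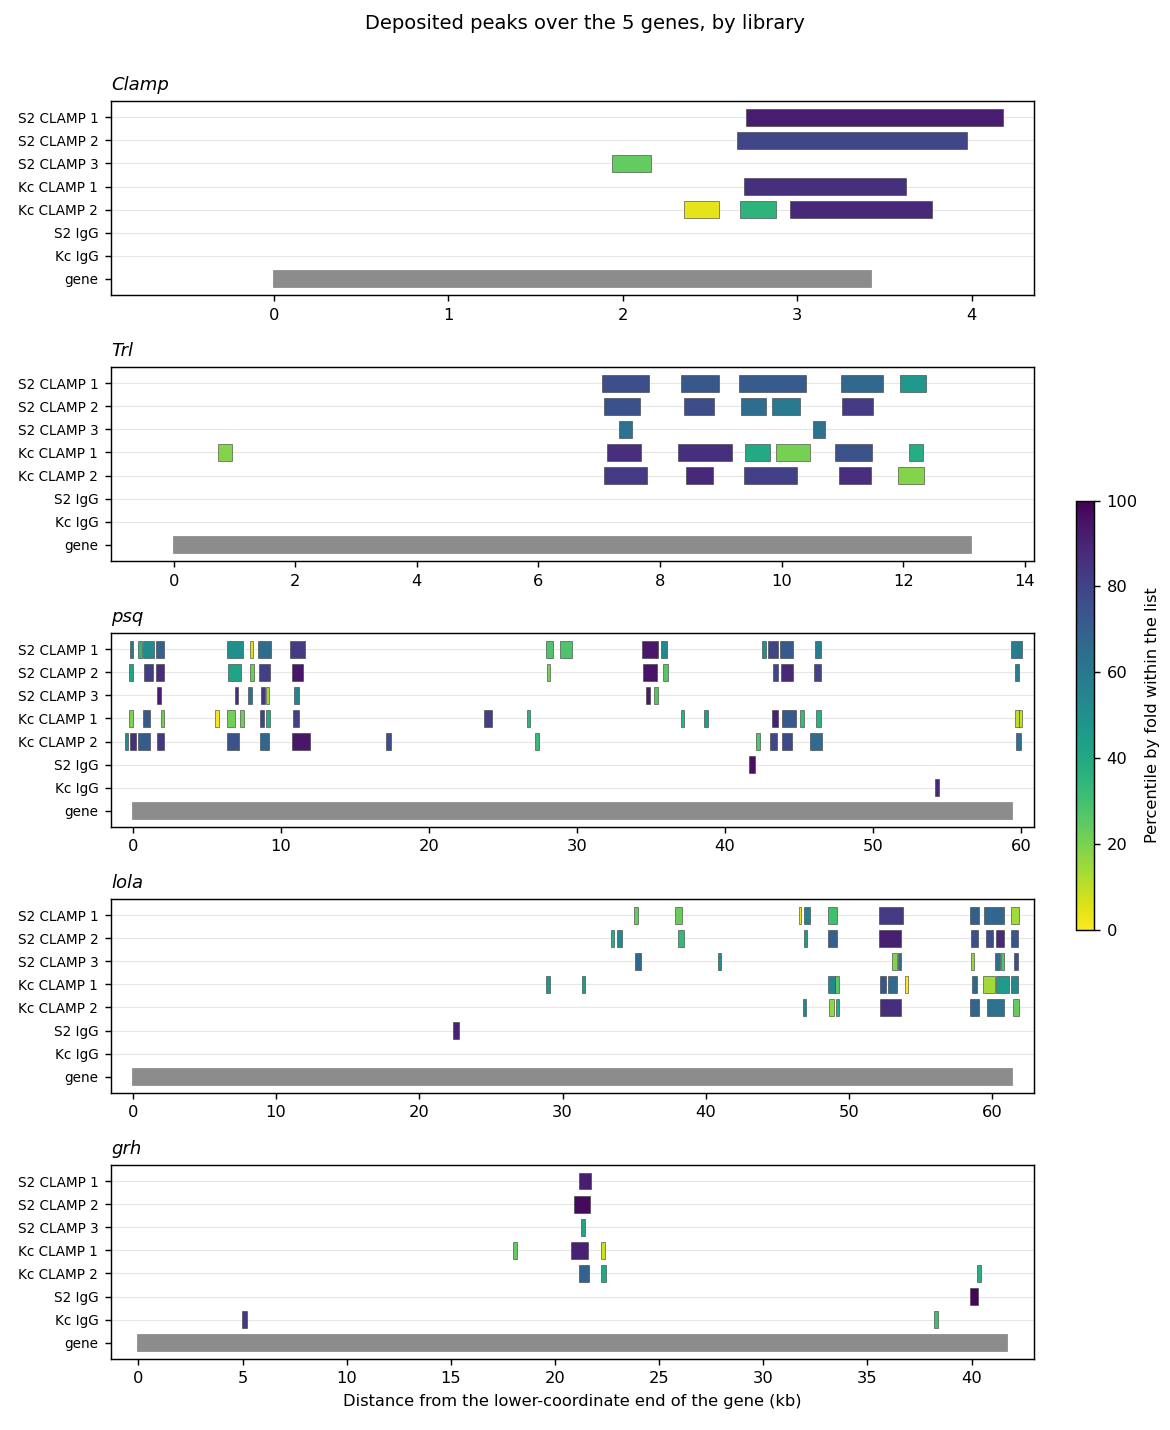
Peaks of the 7 libraries (rows) over the 5 genes, drawn to scale against the distance from the lower-coordinate end of each gene in kb. The grey bar is the gene, and colour gives the percentile of the peak by fold within its own list. CLAMP peaks gather at the high end of Clamp, Trl and lola, in several blocks along psq and at 1 place in the middle of grh.

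Clamp (2L 22165720 to 22169143 of dm6) was bound at its high-coordinate end. The gene table gives no strand or transcript starts, so start and end of transcription were not told apart here. A region at 2L 22168375 to 22169899 ran past that end and into lncRNA:CR44809, which begins 524 bp beyond the gene, at 22169668. This lncRNA, with its flanking 500 bp, shared 4 of the 7 CLAMP peaks of Clamp, in 4 libraries. These peaks cannot be assigned to a single gene. The region was held by S2 replicates 1 and 2 with a fold over the caller's background of 6.69 and 4.05, and by both Kc libraries with 2.79 and 4.36. Folds and p-values of peaks here are the authors' own. Folds are printed for each library, but only percentiles or ranks within a list bear comparison between libraries. Within their lists these peaks stood at percentiles 92.6 and 79.1 by fold in S2 and 86.3 and 88.8 in Kc. Their strongest summits lay within 114 bp of one another. In S2 replicate 3 the only peak was a weak one outside that region, at percentile 24.1. Of the 4424 bp window, peaks covered 1219 bp in S2 replicate 1, 1269 bp in replicate 2 and 224 bp in replicate 3, against 928 and 1222 bp in the Kc libraries. The lines overlapped, and S2 replicate 3 was the low library. The difference of means (S2 minus Kc) was -171 bp (exact two-sided permutation p = 0.9), and 169 bp without S2 replicate 3. Neither IgG library had a peak at Clamp.

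Trl (3L 14747929 to 14761049) was bound as a run of separate peaks over its upper part, between 7 and 13 kb from the lower end, where 23 of its 24 CLAMP peaks had their summits. Peak numbers were 5, 5 and 2 among the S2 libraries, against 7 and 5 for Kc. The region at 3L 14754976 to 14755751 was the one shared by all 5 libraries. The S2 peaks there had folds of 3.74, 3.62 and 2.25, those of Kc 2.81 and 3.61, and the strongest summits lay within 44 bp of each other. As percentiles these folds were 76.5, 75.1 and 62.2 in S2 and 86.6 and 83.3 in Kc. Regions at 3L 14756232 to 14757110, 14757230 to 14758386 and 14758804 to 14759596 were held by both Kc libraries and S2 replicates 1 and 2. So 4 of the 7 regions were common to all CLAMP libraries other than S2 replicate 3. CG42507, a gene that lies within the span of Trl, shared 17 of the 24 peaks. Tsen34, a gene that overlaps the high end of Trl, shared another 3, which lay in its flanking 500 bp. These peaks cannot be assigned to a single gene.

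In the p-value order of its list the strongest Trl peak ranked 752, 1375 and 2821 across the S2 replicates, against 579 and 207 across those of Kc. Trl cover came to 3617, 2469 and 411 bp for the S2 libraries, against 3495 and 2967 bp for Kc. The Kc libraries lay inside the range of the S2 libraries. The difference of -1065 bp had an exact two-sided permutation p of 0.5, and without S2 replicate 3 it was -188 bp. Trl had no peak in either IgG library, although 39.1% of protein-coding genes of 5 to 20 kb had one.

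The gene psq (2R 10557888 to 10617280) held the most peaks of the 5 in total, at 17, 14 and 8 among the S2 libraries and 19 and 14 for Kc. Its mean of 14.4 peaks per library was above that of 99.9% of protein-coding genes, a rank to which its length of 59393 bp contributes. The peaks fell into blocks. The lower 12 kb held 37 of the 72 CLAMP peaks, 8, 7 and 6 of them S2 peaks and 9 and 7 Kc peaks. A second block, 43 to 47 kb from the lower end, held 13 peaks, with S2 counts of 3, 3 and 0 against Kc counts of 4 and 3. At the far end lay 5 more, again with none in S2 replicate 3. Their summits lay past the end of psq, and CG11883, which begins 381 bp beyond it, shared all 5. These peaks cannot be assigned to a single gene.

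In the lower block 4 regions were shared by all 5 libraries. The strongest of them by mean percentile was at 2R 10568498 to 10569861, with summits within 57 bp. Its S2 folds were 4.49, 8.25 and 2.18, and its Kc folds 2.58 and 5.69. As percentiles these were 82.6, 94.0 and 55.6 in S2 and 80.9 and 93.8 in Kc. By p-value this peak ranked 544 and 192 in S2 replicates 1 and 2 and 206 in Kc replicate 2, where it was the strongest of the gene. A total of 10 psq regions were held by all CLAMP libraries other than S2 replicate 3.

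A region near the middle of psq separated the lines. At 2R 10592308 to 10593359, about 34.9 kb from the lower end, all 3 S2 libraries had a peak and neither Kc library did. Its folds were 7.19, 8.72 and 3.12 in S2 replicates 1 to 3. It was the highest peak of psq by fold in each of the S2 libraries, at percentiles 93.8, 94.6 and 92.6 of their lists. The summits lay within 67 bp of each other. The nearest peak was 1550 bp away in Kc replicate 1 and 6649 bp away in Kc replicate 2. No IgG peak lay closer than 6182 bp. Among the 272 regions held by every S2 library and no Kc library, with regions that meet an IgG peak set aside, it ranked 11 by mean percentile.

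That psq region kept its S2-only place when q-values had to be 0.0001 or lower, where it ranked 12 of 199. It also did so with equally long lists, each CLAMP list cut to its 5535 strongest peaks, where it ranked 11 of 209. A pattern of this kind has a smallest possible p of 0.1 with 3 libraries against 2, so no single region can pass a test here. A second psq region of the same class, at 2R 10565650 to 10566063, was weak, with percentiles 5.76, 22.6 and 62.2 in S2. It did not keep its class at the stricter threshold but did with equally long lists, where it ranked 189 of 209. Of protein-coding genes 1.38% held an S2-only region, and of the 5 genes psq alone did. That share is over genes of all lengths, and psq is 59393 bp long. No share for genes of like length was computed.

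**Figure D2:**
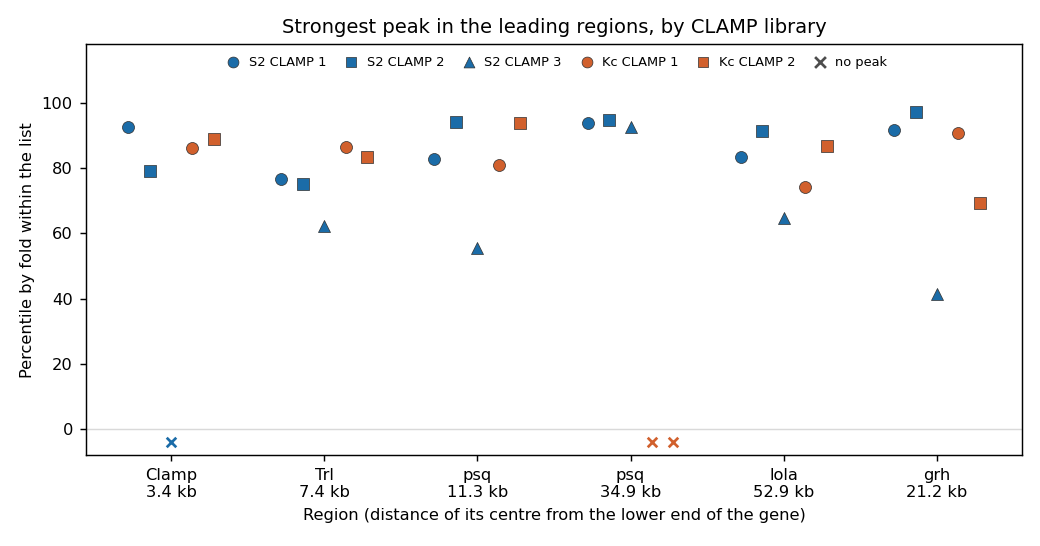
Percentile by fold within its own list of the strongest peak in 6 regions, for the 3 S2 and the 2 Kc CLAMP libraries. The region name gives the distance of its centre from the lower end of the gene, and a cross marks a library with no peak. The psq region at 34.9 kb is above percentile 92 in every S2 library and has no peak in Kc, and S2 replicate 3 is the lowest or missing in the other 5 regions.

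Over psq as a whole the lines did not separate. The window was covered over 10619, 7363 and 2052 bp by S2 peaks, against 6360 and 7658 bp by Kc peaks. The Kc values lay within the S2 range, and the difference of -331 bp (exact two-sided permutation p = 0.9) became 1982 bp without S2 replicate 3 and 318 bp without Kc replicate 2.

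The gene lola (2R 10481894 to 10543291) lies 14596 bp below psq on the same arm and was bound over its upper part only. No CLAMP library had a peak in the lower 28 kb of the gene. The upper 10 kb, from 52 to 62 kb, held 26 of the 45 peaks, of which 4, 5 and 6 came from the S2 libraries and 7 and 4 from Kc. The 4 regions shared by all 5 libraries lay in that stretch, at 2R 10533967 to 10535658, 10540307 to 10540979, 10541204 to 10543043 and 10543219 to 10543778. The last reached past the high end of the gene, and the one before it overlapped the antisense RNA asRNA:CR45135.

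The first of these had S2 folds of 4.59, 6.79 and 2.26, and Kc folds of 2.41 and 4.07. As percentiles these folds were 83.5, 91.4 and 64.6 in S2 and 74.2 and 86.9 in Kc. By p-value the peak there ranked 340 in S2 replicate 1, and 1163 and 681 in the Kc libraries, where it was the strongest peak of lola. In S2 replicate 2 the strongest peak was at 2R 10542143 to 10542670 and ranked 254. Peak numbers were 9, 10 and 8 for the S2 libraries, against 11 and 7 for Kc, with a mean of 9 in each line. S2 peaks covered 6292, 5282 and 2307 bp of lola, against 5101 and 4445 bp under Kc peaks. The lines overlapped: the difference was -146 bp (exact two-sided permutation p = 1), 1014 bp without S2 replicate 3 and 182 bp without Kc replicate 1. Of the stretch covered by any CLAMP library at lola, 14.7% was covered by all 5. This share was 14.0% at grh, 4.61% at psq and 4.69% at Trl. At Clamp no base was covered by all 5. Between lola and psq, where lncRNA:acal lies, S2 replicates 1 to 3 had 3, 3 and 0 peaks and the Kc libraries 1 and 3. The Kc replicate 2 count includes a peak at 2R 10557346 to 10557570 that also reached the psq window and was counted there.

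The gene grh (2R 17801132 to 17842820) had few peaks, with 1 site common to all CLAMP libraries. At 2R 17821903 to 17822859, in the middle of its 41689 bp, each of them had a peak, with strongest summits within 52 bp. The S2 folds were 6.39, 11.4 and 2.03, against Kc folds of 3.09 and 2.77. As percentiles these were 91.7, 97.3 and 41.4 for S2, against 90.8 and 69.3 for Kc, with S2 replicate 3 the lowest. Each S2 library had this 1 peak alone. Each Kc library had 3 peaks, of which those at 2R 17823338 to 17823566 overlapped one another and had no counterpart in S2.

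That second grh region was weak, with Kc folds of 1.64 and 2.11, and ranked 379 among 424 Kc-only regions. Neither the q-value limit of 0.0001 nor equally long lists left it in place. A Kc-only region occurred at 2.83% of protein-coding genes, and grh was the one gene of the 5 with such a region. Here too the share is over genes of all lengths, and grh is 41689 bp long. S2 peaks covered 555, 766 and 223 bp of grh, against 1205 and 903 bp under Kc peaks, so every S2 library lay below either Kc library. The difference of -539 bp had an exact two-sided permutation p of 0.2. After Benjamini-Hochberg adjustment over 8532 genes with a CLAMP peak the p was 0.965. Among those genes 8.58% likewise had less cover in each S2 library than in either Kc library, and 3.87% had more. The grh difference shrank to -195 bp under the q-value limit of 0.0001 and to -121 bp with equally long lists. The number of peaks gave an exact permutation p of 0.1, the smallest possible with 3 libraries against 2.

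**Figure D3:**
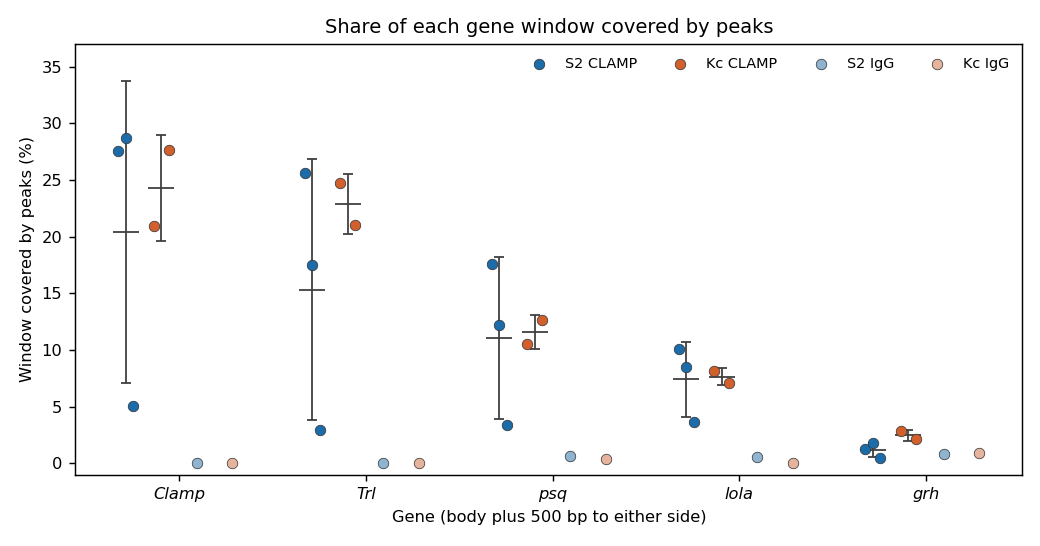
Share of each gene window covered by peaks, in percent, with 1 point per library, from left to right S2 CLAMP, Kc CLAMP, S2 IgG and Kc IgG. Bars give mean and SD for S2 (n = 3) and Kc (n = 2). S2 replicate 3 is the lowest CLAMP library at every gene, and at grh both Kc points lie above the 3 S2 points.

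Per length, Clamp had the largest share of its window covered and grh the smallest. Over the 5 CLAMP libraries the share was 22% ± 9.94 at Clamp, 18.4% ± 9.22 at Trl, 11.3% ± 5.13 at psq, 7.51% ± 2.38 at lola and 1.71% ± 0.864 at grh (SD, n = 5). The median gene of the 13922 had a mean share of 0.353%. Neighbours in this order were not separated beyond their spread, except that lola was above grh in all 5 libraries, with its lowest value of 3.70% above the highest of grh, 2.82%. Clamp was above Trl, Trl above psq and psq above lola in 4 of 5 libraries each.

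Set beside genes of like length, the first 4 stood high and grh did not. Clamp had a larger mean share than 98.1% of protein-coding genes shorter than 5 kb. Trl exceeded 98.0% of those of 5 to 20 kb. Among the 461 genes of 40 kb or longer, psq exceeded 98.3%, lola 93.5% and grh 56.2%. These percentages describe the 5 genes and carry no test.

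**Figure D4:**
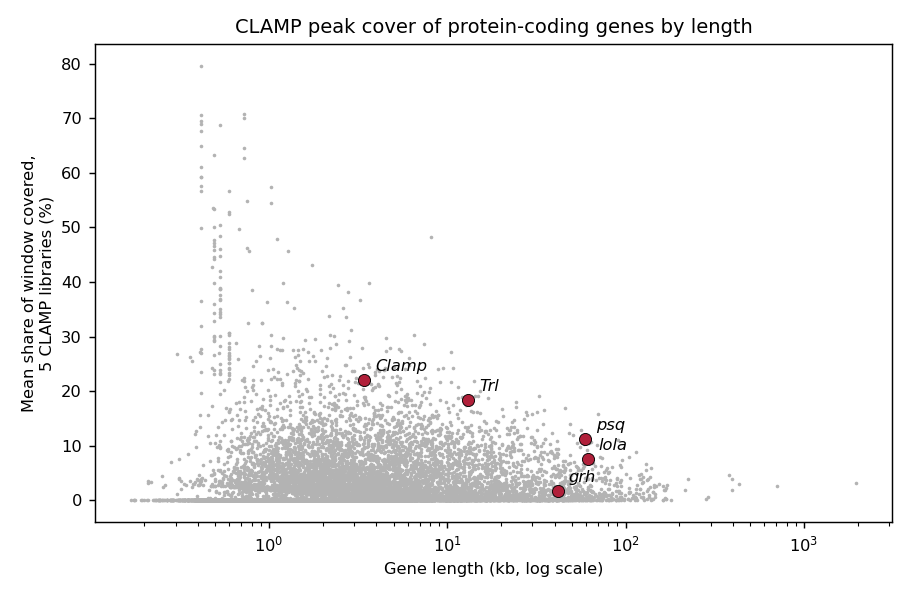
Mean share of the gene window covered by peaks over the 5 CLAMP libraries, in percent, against gene length in kb on a log axis, for 13922 protein-coding genes (grey) and the 5 genes (red). Clamp, Trl, psq and lola lie above most genes of like length, though below the highest of them, and grh lies among the bulk of genes.

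Control IgG gave a different picture at these genes. Clamp and Trl had no IgG peak, lola had 1 in S2, psq had 1 in each line, and grh had 1 in S2 and 2 in Kc. So 3 of the 5 genes were held by S2 IgG, as were 3.86% of protein-coding genes, and 2 by Kc IgG, as were 23.3%. Both IgG libraries held psq and grh, and 2.06% of protein-coding genes. Clamp and Trl were held by all 5 CLAMP libraries and no IgG library, as were 3.23%. Length again bears on this: an IgG peak in either line was present at 17.1% of protein-coding genes shorter than 5 kb and 83.1% of those of 40 kb or longer. In S2 IgG 35.8% of protein-coding genes of 40 kb or longer held a peak, and in Kc IgG 76.1%. The 3 peaks of S2 IgG were 374 to 380 bp wide with folds of 42.6 at psq, 35.5 at lola and 47.7 at grh, and 17.9% of the S2 IgG list had a fold above 30. The CLAMP peak nearest to the psq one, 88 bp away, and the one nearest to the lola one, 6099 bp away, did not overlap them. The S2 IgG peak at grh (2R 17841069 to 17841442) overlapped a peak of Kc CLAMP replicate 2 at the high end of the gene, and this was the 1 of the 55 merged CLAMP regions at the 5 genes that met an IgG peak. Of all 19039 merged regions, 14.5% met one. None of the 10 regions held by all 5 CLAMP libraries at these genes did, while 55.5% of such regions in the whole data did.

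Cover was larger with CLAMP than with IgG at 4 of the genes. The mean difference (CLAMP minus IgG) was 972 bp at Clamp, 2592 bp at Trl, 6498 bp at psq and 4497 bp at lola. At each of these every CLAMP library lay above both IgG libraries, as it did for 7.26% of the 9979 genes with a peak in any list (exact two-sided permutation p = 0.0476 each, the smallest that 5 libraries against 2 allow). After Benjamini-Hochberg adjustment over those 9979 genes the p was 0.717. At that adjusted level no gene passed 0.05. Unadjusted, 474 of the 9979 genes had a p below it, close to the share of 0.0476 that random labels would give. At grh the mean cover was 730 bp with CLAMP and 392 bp with IgG, and the 2 sets overlapped (difference 338 bp, exact permutation p = 0.333). Within S2 alone the differences were 904 bp at Clamp, 2166 bp at Trl, 6298 bp at psq, 4250 bp at lola and 141 bp at grh. Within Kc alone they were 1075, 3231, 6764, 4773 and 644 bp in the same order. The S2 IgG list is much shorter than the others. With every list cut to its 1165 strongest peaks the differences were 244 bp at Clamp, 1557 bp at Trl, 2031 bp at psq, 1697 bp at lola and -33.8 bp at grh. None kept the smallest p (exact permutation p of 0.143 to 1). In these short lists Clamp kept a peak in S2 replicate 1 alone of the CLAMP libraries (rank 727 by p-value). At grh S2 replicate 2 alone of them kept one (rank 575).

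In all, the 5 genes held 55 merged regions. Of these 10 (18.2%) were held by all 5 CLAMP libraries, as were 6.57% of all merged regions. A further 11 were held by 4, each time all but S2 replicate 3, so 21 were common to the 4 other libraries. There were 25 regions (45.5%) in a single library, against 57.8% of all regions. Likeness of cover between libraries was taken as the mean Jaccard index (shared over joint base pairs). Within lines it was 0.403, 0.366 and 0.440 at Clamp, Trl and lola. Between lines it was 0.476, 0.487 and 0.475. At psq and grh it was 0.368 and 0.436 within and 0.317 and 0.346 between. S2 replicate 3 makes up a larger part of the within-line pairs than of the between-line pairs. These averages therefore do not show which pairs were more alike, and were not tested. Between S2 replicates 1 and 2 the index was 0.961, 0.683, 0.661, 0.659 and 0.660 at Clamp, Trl, psq, lola and grh. Between the Kc libraries it was 0.653, 0.646, 0.386, 0.560 and 0.391.

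Genes related to the 5 by protein family or function were counted in the same way, from lists chosen by name. Of 13 BTB factor genes, 9 held a CLAMP peak in all 5 libraries, against 6.96% of protein-coding genes. The median length of these 13 genes was 36848 bp, and 2163 bp for all protein-coding genes. Those named by the rule of most libraries and highest percentile were ttk, a tramtrack repressor gene, ken, lolal and fru. The gene ttk had 4, 5 and 6 peaks in S2 and 7 and 3 in Kc and none with IgG. lolal, which encodes a small BTB protein that partners GAGA factor, had 1 peak in each S2 library and 1 and 2 in Kc, over 21.1% of its window, and no IgG peak. The gene ken had 4, 4 and 2 peaks in S2 and 5 and 5 in Kc, over 19.4% of its window, and 1 in Kc IgG. For fru, the courtship gene, the numbers were 10, 10 and 4 in S2 and 18 and 8 in Kc, with 2 peaks in S2 IgG. An IgG peak was present at 9 of the 13 BTB genes, and at 3499 of all 13922 protein-coding genes. Among protein-coding genes of 40 kb or longer this share was 83.1%.

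Of these BTB genes, 2 had less cover in each S2 library than in either Kc library, and none had more, against 8.58% and 3.87% of all genes with a CLAMP peak. They were bab1, with 6, 5 and 5 S2 peaks against 20 and 13 Kc peaks, and bab2, with 1, 1 and 2 against 6 and 3 (exact permutation p = 0.1 each, the smallest possible, and 0.965 after Benjamini-Hochberg adjustment over the 8532 genes). These neighbouring genes act in patterning, and they are named for this difference after their values were seen. Kc IgG had 8 peaks at bab1 and 4 at bab2, and S2 IgG 1 at bab1.

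Of 10 matched genes of GAGA factor cofactors and pausing factors, none was held by all 5 libraries, and 7 were held by at least 1, against 6.96% and 52.4% of protein-coding genes, so neither count stood far from that of all genes. Their median length was 3301 bp. The leading ones were E(bx), a subunit gene of the NURF chromatin remodeller, and corto, each in 4 CLAMP libraries, and then Nelf-E and Nelf-A, subunit genes of the NELF pausing factor, in 3. E(bx) had 2, 1 and 0 peaks in S2 and 2 and 1 in Kc, and corto 1, 1 and 0 in S2 and 3 and 1 in Kc, with 1 in Kc IgG. Nelf-E had 1, 1 and 0 peaks in S2 and 1 and 0 in Kc, and Nelf-A 2, 2 and 0 in S2 and 1 and 0 in Kc, with 2 in Kc IgG. No CLAMP peak was called at Nurf-38, Ssrp or TH1. A further pausing-factor gene, NELF-B (2366 bp), was missed for its spelling. It is in none of these counts and was not ranked among the leading genes. CLAMP peaks covered a mean of 5.82% of its window.

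Among 5 pioneer and Grainyhead-family genes, gem, a relative of grh in the CP2 family, and srp, a GATA factor gene, were held by all 5 libraries and by no IgG library. Of protein-coding genes 6.96% were held by all 5, and 3.23% by all 5 with no IgG peak. The gene gem had 2, 4 and 1 peaks in S2 and 3 and 3 in Kc. The gene srp had 5, 4 and 2 in S2 and 4 and 2 in Kc. Pioneer factor gene opa was held by 4 CLAMP libraries and had 5 peaks in Kc IgG. The gene for Zelda (zld), the pioneer of the early embryo, had 0, 1 and 0 peaks in S2 and 2 and 1 in Kc, with IgG peaks in both lines. No CLAMP peak was called at fkh.

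**Figure D5:**
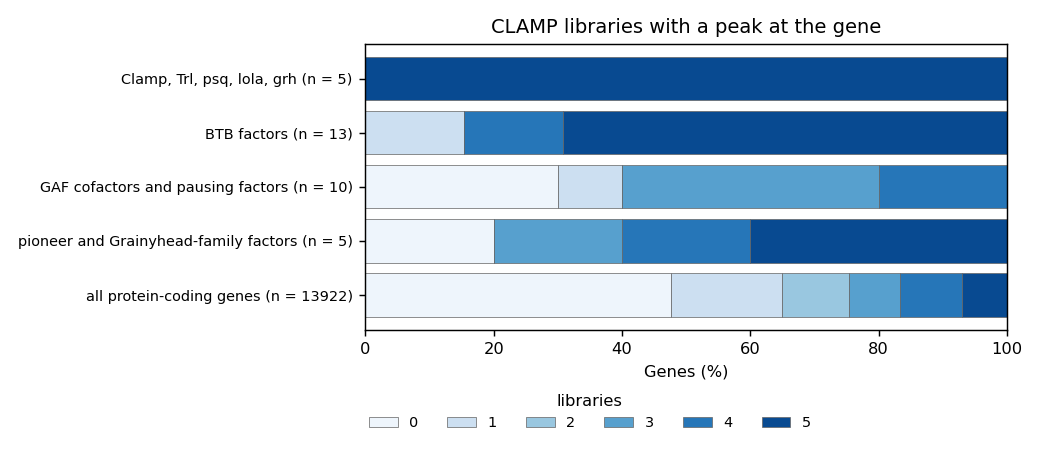
Share of genes, in percent, by the number of CLAMP libraries that held a peak at the gene, from 0 (lightest) to 5 (darkest). Clamp, Trl, psq, lola and grh and 9 of 13 BTB factor genes were held by 5 libraries, against 6.96% of all protein-coding genes.

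The genes whose pattern over the 7 libraries was most like each of the 5 were sought by the mean absolute difference in the percentile of the highest fold, with 0 for a library without a peak. For Clamp these were Pka-C1 (2.03 percentile points) and CG1146 (2.65). For Trl they were spi (2.07) and Act5C (2.25), and for psq brat (3.01) and kirre (4.42). For lola they were zfh2 (4.18) and raw (5.21). The pattern of grh had the least close matches, in kirre (9.50) and sm (10.5).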

How the data were processed

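Per the labels' protocols, CUT&RUN was done on equal numbers of cells, 1 ng of DNA went into each library, amplified over 14 PCR cycles and read as 25 bp pairs. Tools named by the submitters' processing notes are Bowtie2, FastQC, MACS2 and Trimmomatic, with build dm6. Not given in the sources used here are versions, settings and the control for calling. The authors deposited 1 narrowPeak list per library. The deposited fold is a ratio of summit signal to background; the deposited −log10 p and q belong to the summit. The title and the list name of S2 replicate 3 carry different internal numbers, and the title was followed.

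Rows with the same interval were joined, keeping the summit with the lowest p, and scaffolds outside the main arms were left out. Genes came from RefSeq, assembly Release 6 plus ISO1 MT, the assembly of dm6. Cover is the number of bases of the window under peaks. Lines were compared by exact permutation over 10 splits (5 libraries into 3 and 2), and CLAMP with IgG over 21, for all genes, with Benjamini-Hochberg adjustment. Scripts (Python 3.11.15, numpy 2.4.6, pandas 2.3.3, matplotlib 3.10.9) were tested on simulated data. Regions are the merged union of CLAMP peaks. Named genes were the 5, up to 4 per other list by libraries and then percentile, and 2 similar genes per member. Members and lists were chosen with earlier results of these data known. Sap18 and Nelf-B had no match in the gene table under these spellings. The gene table does hold NELF-B, which was left out of its list for this reason. Sequences, and the planned search for a GA motif, were not used here. Alternatives were peaks at q of 0.0001 or less, equally long lists, other windows, summit overlap, peak numbers, relative cover, a replicate block and each library left out. Equally long lists held the 5535 strongest peaks of each CLAMP list, or the 1165 strongest of every list where CLAMP was set against IgG.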

Additional observations from a re-analysis of the deposited data

How the results depend on the processing

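The lists hold no read numbers, so differences in depth between libraries cannot be told apart from differences in binding. For the 5 genes no adjusted p passed 0.05 in any setting for which one was computed. Of the 5 genes, 2 were held by all 5 CLAMP libraries once q had to be at most 0.0001, and 5 by the other 4 libraries without S2 replicate 3, a setting chosen after seeing the data. The sign of the S2 minus Kc cover turned at 3 genes. At Clamp it was 31 bp with equally long lists, and -354 to 169 bp with single libraries left out. At psq it was 178 bp when only regions held by at least 3 CLAMP libraries counted, also chosen after seeing the data, and -2302 to 1982 bp with single libraries left out. At lola it ran from -979 to 1014 bp. The range was -1791 to -188 bp at Trl and -690 to -388 bp at grh, with no change of sign. The CLAMP minus IgG cover at grh was -33.8 bp with every list cut to its 1165 strongest peaks. As a difference of cover relative to each list's average it was -0.884. At the other 4 genes the CLAMP minus IgG cover kept its sign in the settings tried. With the lists of 1165 peaks the value at Clamp rested on S2 replicate 1 alone. With replicates 1 and 2 of S2 and Kc paired by number as a block, S2 minus Kc cover was 169 bp at Clamp, 1982 bp at psq, 1014 bp at lola, -188 bp at Trl and -394 bp at grh (exact sign-flip p of 0.5 to 1, smallest possible 0.5). The labels give no shared origin for equal numbers, and this block leaves out S2 replicate 3. The cause of these changes was not tested.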
